A study of Homo sapiens with 6 samples.

Results

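The HIF subunits, the prolyl hydroxylases that mark them, the asparaginyl hydroxylase FIH and the VHL adaptor form the oxygen-sensing core of the cell, and 10 genes of this core were followed in RNA-seq of MDA-MB-231 cells. They were picked by gene symbol. HIF1A, EPAS1 and HIF3A encode the HIF alpha subunits, ARNT and ARNT2 the beta subunits, EGLN1, EGLN2 and EGLN3 the prolyl hydroxylases, and HIF1AN encodes FIH. All 10 were among the 17631 genes with a value. MDA-MB-231 is a human cell line derived from triple-negative breast cancer, and PDBAG1 is a peptide of the protein GPD1 joined to a cell-penetrating sequence. The study asked how PDBAG1 changes the transcriptome of these cells. There were 3 libraries of cells given vehicle and 3 of cells given 30 µM PDBAG1, all collected at 24 h. Cells of both groups grew in DMEM with serum at 5% CO2, and the study describes its cell experiments as done at normal oxygen. A single line, dose and time limit the comparison. No source states whether the libraries of a group came from separate cultures, so the p-values measure only the spread between these libraries.

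As background, HIF is a dimer of an oxygen-regulated alpha subunit and a constitutive beta subunit. When oxygen is present, the EGLN enzymes hydroxylate prolines of the alpha subunit with 2-oxoglutarate and iron, VHL binds the hydroxylated protein, and the ubiquitin ligase around VHL sends it to the proteasome. FIH hydroxylates an asparagine and so blocks the binding of coactivators. This control acts on protein, whereas the values given here are of mRNA. By immunoblot, the study found less FIH and less PHD2, the EGLN1 protein, after PDBAG1. It also found less HIF-1 beta, the ARNT protein, in MDA-MB-231 cells, and more HIF-1 alpha and HIF-2 alpha protein. A rise in mRNA is thus not to be read as a rise in protein. EGLN1 and EGLN3 are themselves known HIF targets, which makes a negative feedback loop, and EGLN2 is not a typical one.

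The values were TPM, a transcript level corrected for length and scaled to one total per library, so that different genes can be compared. Read totals cannot be recovered from TPM, and no counting error is given. Unless stated otherwise, a value after ± is the SD over the 3 libraries of a group. Between 12392 and 12611 genes per library had at least 1 TPM. The line markers VIM, CD44, KRT18, KRT8, CAV1, AXL and MSN summed to 6852 to 7060 TPM with vehicle and 8699 to 8769 TPM with PDBAG1. VIM alone had means of 4270 and 5877 TPM. By the test given below, VIM, CD44, KRT8 and MSN rose, while KRT18, CAV1 and AXL fell. Of 7 genes chosen as low or absent in the line, PGR, CDH1 and FOXA1 were below 1 TPM in every library. The others had values in every library. ESR1 was at 1.96 to 3.38 TPM, GATA3 at 2.73 to 3.88, EPCAM at 3.92 to 5.78 and ERBB2 at 23.6 to 25.4. The labels name breast cancer tissue as a source beside the cell line. Of the 14 markers of other cells that tissue would hold, 11 had a value, and VWF, ADIPOQ, FABP4, PLIN1 and COL1A2 were below 1 TPM in every library. CD68 was at 251 to 264 TPM with vehicle and 306 to 329 TPM with PDBAG1, and the 10 others summed to 19.0 to 19.7 and 23.4 to 25.5 TPM. Of those 10, PECAM1 had the largest difference past the test, at 3.94 ± 0.152 and 8.64 ± 0.680 TPM. The part of these markers in the results was not tested.

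Of the 9 genes that could be tested, 6 rose with PDBAG1 and 0 fell. EGLN1, the main prolyl hydroxylase of HIF, rose most, followed by EPAS1 and EGLN3, then by ARNT and VHL, and HIF1A rose least. EGLN2, HIF1AN and ARNT2 did not pass the test, and HIF3A was too low to be tested. The test was limma on log2(TPM + 1) over the 12582 genes with at least 1 TPM in 3 or more libraries, and an adjusted p (Benjamini-Hochberg) under 0.05 made a call. Of all genes tested, 37.6% were called, 21.7% higher and 15.9% lower, beside 6 of 9 and 0 of 9 here. The median log2 fold change was 0.23 over the 9 genes and 0.03 over all genes tested. On this scale EGLN1 alone of the 9 reached a fold change of at least 1.5. With a pseudocount of 0.1 EGLN3 did too, and without vehicle replicate 1 or PDBAG1 replicate 1 EPAS1 did. Of all genes tested, 2.86% were called and also reached this fold change upwards, and 0.477% downwards. For EPAS1, ARNT, EGLN1, EGLN3 and VHL, 5 of the 9, all PDBAG1 values exceeded all vehicle values, and for 0 of the 9 were all lower. Over all genes tested the groups were apart in 47.4%, with PDBAG1 higher in 27.2% and lower in 20.2%. In bulk RNA, a higher level in every cell and a larger share of cells with a high level cannot be told apart.

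**Figure D1:**
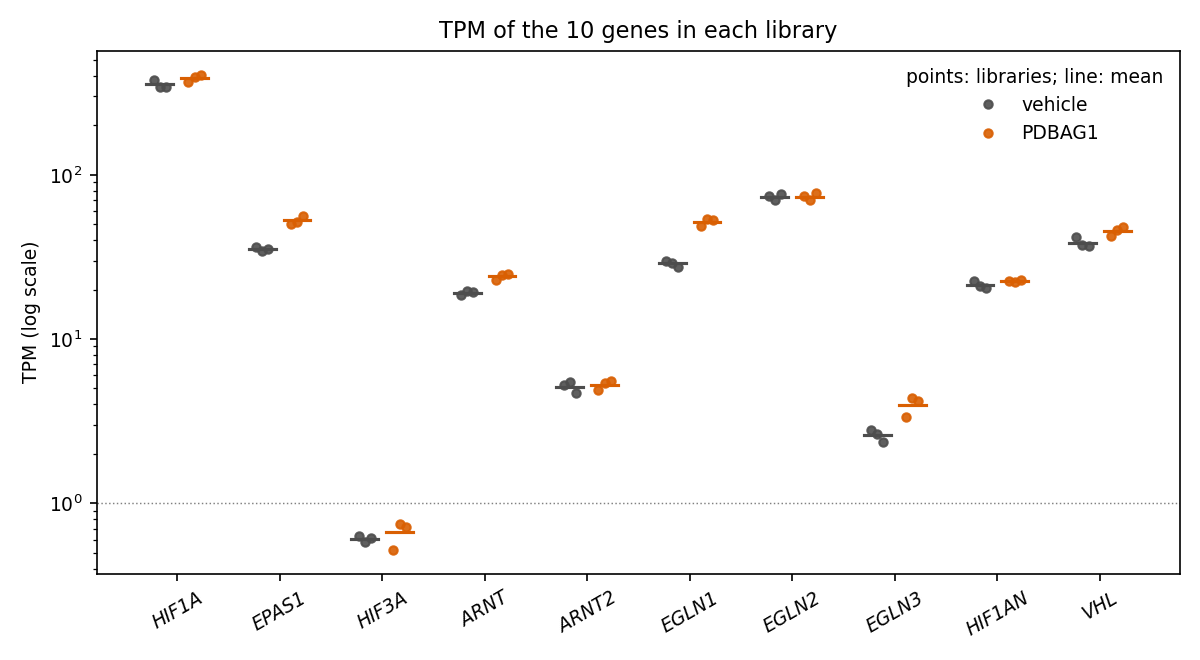
TPM (log axis) of the 10 genes in each of the 3 vehicle and 3 PDBAG1 libraries (points), with group means (short lines) and 1 TPM (dotted line). HIF1A lies above the other 9 genes at 342 to 408 TPM, the PDBAG1 points of EGLN1 and EPAS1 lie clear of the vehicle points, and HIF3A stays below 1 TPM.

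The alpha subunits differed widely in level. HIF1A (ENSG00000100644; chromosome 14, 61695513 to 61748259 on GRCh38, plus strand) encodes HIF-1 alpha and was number 419 of all genes by mean TPM with vehicle. Its levels were 380, 342 and 342 TPM with vehicle and 369, 392 and 408 TPM with PDBAG1. The groups overlapped, since vehicle replicate 1 lay above PDBAG1 replicate 1. The mean went from 355 ± 21.6 to 389 ± 19.5 TPM, and limma gave a log2 fold change of 0.13 ± 0.05 (SE) at an adjusted p of 0.0423. Antisense genes HIF1A-AS1 and HIF1A-AS3 overlap it, and no source used here states whether reads were counted by strand. The call of HIF1A was lost under median-of-ratios scaling (log2 fold change 0.10, limma adjusted p = 0.0726), without the expression filter (limma adjusted p = 0.108) and without a variance trend (0.148). It was also lost in 4 of the 6 fits that left out a library, at a log2 fold change of 0.11 without vehicle replicate 2 or 3, 0.13 without PDBAG1 replicate 2 and 0.10 without PDBAG1 replicate 3.

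EPAS1 (ENSG00000116016; chromosome 2, 46293667 to 46386697, plus strand) encodes HIF-2 alpha, the paralogue with the more restricted tissue range. It was at 36.2, 34.3 and 35.1 TPM with vehicle and at 50.1, 51.5 and 56.5 TPM with PDBAG1. Every PDBAG1 library was above every vehicle library. The mean rose from 35.2 ± 0.946 to 52.7 ± 3.36 TPM. By limma the log2 fold change was 0.57 ± 0.06 (SE), at percentile 96.8 of all genes tested and an adjusted p of 5.42e-06. HIF3A (ENSG00000124440; chromosome 19, 46297042 to 46343433, plus strand), the third alpha gene, whose products include forms that inhibit HIF, was at 0.630, 0.580 and 0.610 TPM with vehicle and 0.520, 0.750 and 0.720 TPM with PDBAG1. All 6 values were below the 1 TPM needed for the test, and the groups overlapped.

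HIF1A made up most of the alpha mRNA in both groups. Its share of the summed TPM of HIF1A, EPAS1 and HIF3A was 91.2%, 90.7% and 90.6% with vehicle and 87.9%, 88.2% and 87.7% with PDBAG1. The shares did not overlap, and the mean fell from 90.8% ± 0.307 to 88.0% ± 0.270. EPAS1 took up that share, going from 9.02% ± 0.303 to 11.9% ± 0.280, while HIF3A stayed near 0.15%. The ratio of EPAS1 to HIF1A was 0.0954 to 0.103 with vehicle and 0.131 to 0.138 with PDBAG1. The summed alpha TPM went from 391 ± 22.5 to 443 ± 22.7, and HIF1A gave 66.4% of that difference and EPAS1 33.5%.

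Shares and ratios were tested with an exact two-sided permutation test over the 6 libraries. With 3 against 3 its smallest p is 0.1, so no share or ratio can pass 0.05. Of 10 shares and ratios tested, 9 had groups that did not overlap and this smallest p (0.111 after adjustment over the 10). The plan named 6 of them. The ratios of EPAS1 to HIF1A, EGLN1 to EGLN2, EGLN1 to HIF1AN and VHL to HIF1A were added to it. Several of the 10 hold the same genes, so the 9 are not separate results.

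The beta subunits were far below HIF1A. ARNT (ENSG00000143437; chromosome 1, 150809713 to 150876708, minus strand) encodes HIF-1 beta, the partner of HIF alpha and of the aryl hydrocarbon receptor. It was at 18.6, 19.6 and 19.4 TPM with vehicle and 22.9, 24.4 and 25.0 TPM with PDBAG1. The groups were apart, and the mean rose from 19.2 ± 0.505 to 24.1 ± 1.09 TPM (limma: 0.32 ± 0.06 as log2 fold change and SE, adjusted p = 0.0014). ARNT2 (ENSG00000172379; chromosome 15, 80404350 to 80597933, plus strand), a paralogue best known from neurons, was at 5.24, 5.46 and 4.66 TPM with vehicle and 4.90, 5.38 and 5.56 TPM with PDBAG1. Its groups overlapped, and its log2 fold change was 0.04 with a 95% interval of -0.16 to 0.24 (limma adjusted p = 0.775), and -0.077 under quantile normalization. The share of ARNT in the summed TPM of ARNT and ARNT2 went from 78.9% ± 1.45 to 82.0% ± 0.291, without overlap.

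The ratio of summed alpha to summed beta TPM was 17.5, 15.1 and 15.7 with vehicle and 15.1, 14.9 and 15.2 with PDBAG1. These groups overlapped (exact permutation test, two-sided p = 0.3, n = 3 each). The difference of the means was -1.03, and it was -0.34 without vehicle replicate 1 and -1.53 without vehicle replicate 2. HIF1A alone stood at 20.4, 17.5 and 17.7 times the TPM of ARNT with vehicle and at 16.1, 16.1 and 16.3 times with PDBAG1, without overlap.

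The prolyl hydroxylases split by paralogue. EGLN1 (ENSG00000135766; chromosome 1, 231363751 to 231422287, minus strand) encodes PHD2, the hydroxylase that sets HIF alpha stability in most cells. Its levels were 29.9, 29.0 and 27.6 TPM with vehicle and 48.5, 53.4 and 52.9 TPM with PDBAG1. All 3 PDBAG1 libraries were above 48 TPM and all 3 vehicle libraries below 30 TPM. The mean rose from 28.8 ± 1.14 to 51.6 ± 2.70 TPM, which is 1.79 times as high. By limma the log2 fold change was 0.82 ± 0.06 (SE), at percentile 98.9 of all genes tested and an adjusted p of 1.75e-07. Its place among all genes by mean TPM went from 5187 to 3307. The annotation holds a same-strand protein-coding gene, ENSG00000287856, over part of the span of EGLN1. That gene was not listed among the genes with a value, and how such reads were divided is not stated.

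EGLN3 (ENSG00000129521; chromosome 14, 33924227 to 34462774, minus strand) encodes PHD3, a hydroxylase known for strong induction by hypoxia. It was low, at 2.80, 2.64 and 2.37 TPM with vehicle and 3.33, 4.39 and 4.22 TPM with PDBAG1. The groups did not overlap, and PDBAG1 replicate 1 was the lowest of its group. The mean rose from 2.60 ± 0.217 to 3.98 ± 0.569 TPM (limma: 0.46 ± 0.11 as log2 fold change and SE, adjusted p = 0.005). SPTSSA lies on the same strand inside the annotated span of EGLN3. On the log2(TPM + 1) scale a gene this low is compressed, and with a pseudocount of 0.1 the log2 fold change of EGLN3 was 0.59.

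EGLN2 (ENSG00000269858; chromosome 19, 40798996 to 40808434, plus strand) encodes PHD1 and had the highest level of the EGLN genes in both groups. It was at 74.4, 69.9 and 76.3 TPM with vehicle and 74.1, 69.9 and 77.0 TPM with PDBAG1. The libraries of both groups covered the same range. The log2 fold change was 0.002 with a 95% interval of -0.11 to 0.11 (limma adjusted p = 0.979), and -0.032 under median-of-ratios scaling. The annotation holds a read-through gene, RAB4B-EGLN2, over the same exons, and how the authors' counting divided such reads is not stated.

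Because EGLN1 rose and EGLN2 did not move beyond this interval, the make-up of the EGLN mRNA shifted. EGLN1 made up 27.9%, 28.6% and 26.0% of the summed EGLN TPM with vehicle and 38.5%, 41.9% and 39.5% with PDBAG1, without overlap (exact permutation test, two-sided p = 0.1, the smallest possible with n = 3 each). EGLN2 went from 70.0% ± 1.56 to 57.0% ± 2.09 and EGLN3 from 2.48% ± 0.218 to 3.08% ± 0.402. The ratio of EGLN1 to EGLN2 was 0.401, 0.415 and 0.362 with vehicle and 0.655, 0.765 and 0.687 with PDBAG1. EGLN2 thus stayed the most abundant paralogue in all 6 libraries. The summed EGLN TPM rose from 105 ± 2.97 to 129 ± 4.30, and EGLN1 gave 93.9% of the difference.

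**Figure D2:**
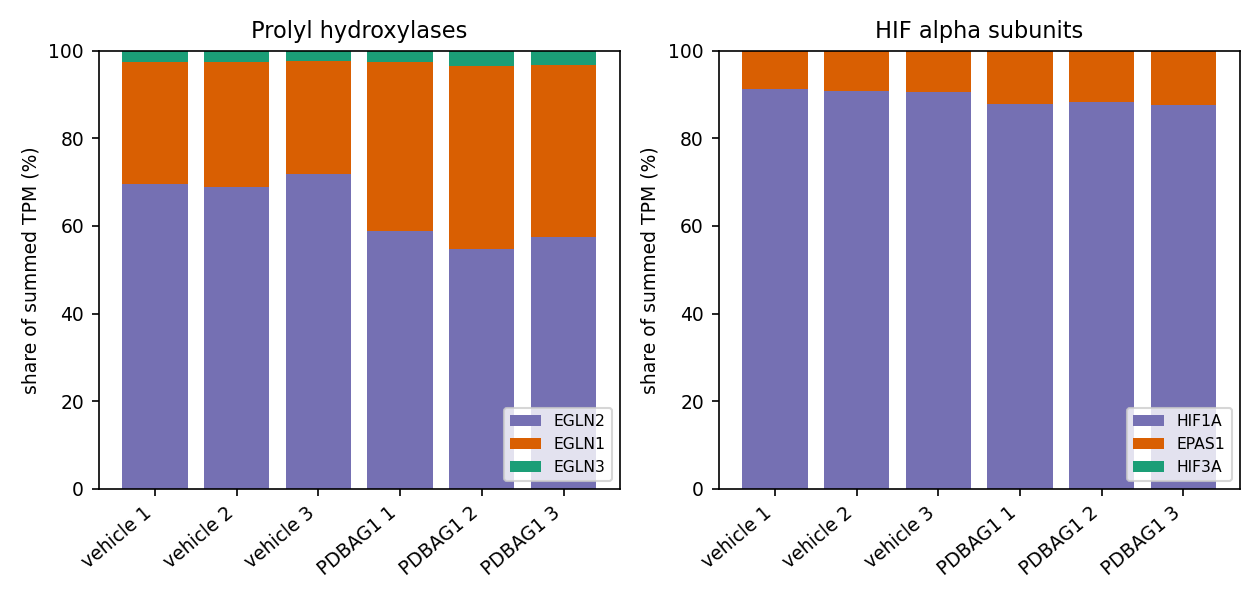
Share (%) of each paralogue in the summed TPM of the EGLN genes (left) and of the HIF alpha genes (right) in each library. EGLN1 goes from 26.0% to 28.6% with vehicle to 38.5% to 41.9% with PDBAG1, and HIF1A keeps more than 87% of the alpha TPM in every library.

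The promoters of the EGLN paralogues and of EPAS1 are shown because these genes differed in how far they moved and HIF binds a short core, ACGTG or GCGTG. RefSeq promoters (GRCh38.p14) were given for 8 of the 10 genes and not for ARNT2 and VHL. The letters ACGTG and GCGTG were searched on both strands in the 250 bases before each start, and 18.5% and 32.2% of the 35116 RefSeq promoters held them. The last 120 of those bases follow, 5′ to 3′ on the gene's strand, with the core letters in capitals. They are chr1:231422288-231422407 (minus), chr19:40799071-40799190 (plus), chr14:33951075-33951194 (minus) and chr2:46297287-46297406 (plus).
EGLN1: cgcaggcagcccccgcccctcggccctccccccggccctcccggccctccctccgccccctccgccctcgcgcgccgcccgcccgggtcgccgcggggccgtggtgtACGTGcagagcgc
EGLN2: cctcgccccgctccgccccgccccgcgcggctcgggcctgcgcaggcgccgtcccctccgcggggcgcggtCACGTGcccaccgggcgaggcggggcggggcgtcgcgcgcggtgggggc
EGLN3: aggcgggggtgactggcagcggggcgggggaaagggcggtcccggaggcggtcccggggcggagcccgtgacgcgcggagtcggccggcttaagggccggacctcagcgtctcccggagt
EPAS1: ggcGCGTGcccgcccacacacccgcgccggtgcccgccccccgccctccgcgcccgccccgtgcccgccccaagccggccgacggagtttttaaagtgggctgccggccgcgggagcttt

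EGLN1 held 1 ACGTG, 13 to 9 bases before the start. EGLN2, which did not pass the test, held the palindrome CACGTG, in which ACGTG is read on both strands, 49 to 44 bases before its first start. EGLN3 had neither core in its 250 bases. EPAS1 and the first HIF1A promoter each held 1 GCGTG, 117 to 113 and 204 to 200 bases before the start. ARNT and HIF1AN had neither, and the first of the 3 HIF3A promoters held 3 copies of GCGTG. Among the tested genes searched, EGLN1, EPAS1 and HIF1A held a core and rose, and EGLN3 and ARNT rose without one. EGLN2 held one and HIF1AN none, and neither passed the test. Whether the letters bear on the changes was not tested. Sequence outside the 250 bases was not searched, nor were ARNT2 and VHL. A match of letters is not a measured binding site, and HIF binding was not tested.

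The mRNA of FIH did not pass the test and that of VHL rose. HIF1AN (ENSG00000166135; chromosome 10, 100529072 to 100559998, plus strand) was at 22.7, 21.1 and 20.6 TPM with vehicle and 22.6, 22.4 and 22.8 TPM with PDBAG1. The groups overlapped, and the log2 fold change was 0.07 with a 95% interval of -0.06 to 0.21 (limma adjusted p = 0.382). Part of its annotated span overlaps NDUFB8 on the opposite strand. The ratio of EGLN1 to HIF1AN, the hydroxylases that act on stability and on coactivator binding, was 1.32, 1.38 and 1.34 with vehicle and 2.15, 2.39 and 2.32 with PDBAG1, without overlap.

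VHL (ENSG00000134086; chromosome 3, 10141778 to 10153667, plus strand) encodes the substrate adaptor of the ligase for hydroxylated HIF alpha. It was at 41.5, 37.5 and 36.6 TPM with vehicle and 42.4, 45.9 and 48.2 TPM with PDBAG1. The groups did not overlap, though vehicle replicate 1 and PDBAG1 replicate 1 were less than 1 TPM apart. The mean rose from 38.5 ± 2.63 to 45.5 ± 2.91 TPM (limma: 0.23 ± 0.06 as log2 fold change and SE, adjusted p = 0.0107). Without vehicle replicate 3 the log2 fold change of VHL was 0.20 and past the threshold no longer (limma adjusted p = 0.0577). The ratio of VHL to HIF1A was 0.109, 0.109 and 0.107 with vehicle and 0.115, 0.117 and 0.118 with PDBAG1.

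**Figure D3:**
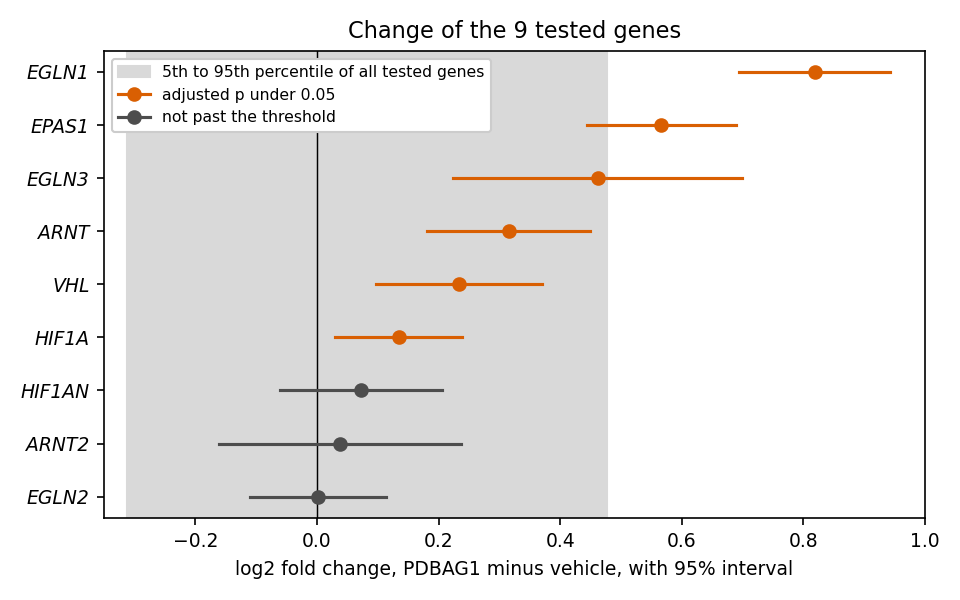
Log2 fold change (PDBAG1 minus vehicle, log2(TPM + 1) scale) of the 9 tested genes with limma's 95% interval. The grey band runs from -0.31 to 0.48, the 5th to the 95th percentile of all 12582 genes tested. The points of EGLN1 and EPAS1 lie above it, and the interval of EPAS1 (0.44 to 0.69) reaches into it. The intervals of HIF1AN, ARNT2 and EGLN2 include 0.

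By level, the order with vehicle was HIF1A, EGLN2, VHL, EPAS1, EGLN1, HIF1AN, ARNT, ARNT2, EGLN3 and HIF3A, and no neighbours in it had overlapping ranges over the 3 libraries. The order with PDBAG1 differed in that EPAS1 and EGLN1 stood above VHL, and ARNT above HIF1AN. EPAS1 and EGLN1 were the 1 neighbouring pair whose ranges overlapped, at 50.1 to 56.5 and 48.5 to 53.4 TPM. The 4 hydroxylases together had 0.311, 0.325 and 0.336 TPM per TPM of HIF alpha with vehicle and 0.354, 0.338 and 0.337 with PDBAG1. The highest vehicle library and the lowest PDBAG1 library of this ratio differed by less than the SD of either group (0.0122 and 0.00932).

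Genes that work with this core were taken from lists chosen with earlier results of these data known. Over all genes tested, 21.7% were called higher and 15.9% lower. The counts of this list and of those that follow are to be read beside these shares. Of 15 tested genes of the VHL ligase and of HIF ubiquitination, 2 rose and 3 fell, with a median log2 fold change of -0.01 beside 0.03 over all genes. CUL2, the cullin of the VHL ligase, was at 44.5 ± 2.87 and 44.6 ± 1.26 TPM and did not pass the test (log2 fold change 0.002, limma adjusted p = 0.977). ELOC (elongin C), which joins VHL to CUL2, fell from 121 ± 1.58 to 110 ± 1.68 TPM (log2 fold change -0.14, limma adjusted p = 0.0155). WSB1, an adaptor of another ligase reported to act on VHL, rose from 54.0 ± 1.92 to 77.7 ± 3.00 TPM (log2 fold change 0.52, limma adjusted p = 3.64e-06). UBE2D1, a ubiquitin-conjugating enzyme, rose with a log2 fold change of 0.23, and COMMD1, a regulator of ubiquitination, fell by 0.23 on the log2 scale.

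Of 14 tested HIF cofactor genes, 5 rose and 2 fell (median log2 fold change 0.11). EP300, the coactivator whose binding FIH blocks, rose from 12.5 ± 0.626 to 15.6 ± 1.46 TPM (limma: 0.30 on the log2 scale, adjusted p = 0.00899). Its paralogue CREBBP was at 7.43 ± 0.364 and 8.25 ± 0.955 TPM and did not pass (limma adjusted p = 0.282). CITED2, which competes with HIF alpha for these coactivators, rose from 154 ± 4.27 to 168 ± 0.719 TPM (log2 fold change 0.12, limma adjusted p = 0.0297). CITED4, of the same family, rose with a log2 fold change of 0.50 and NCOA3, a steroid receptor coactivator, with 0.41.

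Of 11 genes reported to act on the hydroxylases or their complexes, 5 rose and 2 fell (median log2 fold change 0.12). AJUBA, a LIM-domain scaffold, fell from 115 ± 4.36 to 73.8 ± 1.72 TPM (limma: -0.64 on the log2 scale, adjusted p = 2.11e-07). LIMD1, a relative of AJUBA that brings EGLN1 and VHL together, rose instead, from 14.8 ± 1.72 to 18.9 ± 1.10 TPM (log2 fold change 0.34, limma adjusted p = 0.00566). ING4, a chromatin protein reported to bind EGLN1, rose with a log2 fold change of 0.39.

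Of 15 genes for proteins that bind, fold or degrade HIF alpha, 2 rose and 7 fell (median log2 fold change -0.09). HSPA8, a chaperone, fell from 2566 ± 47.1 to 2153 ± 58.2 TPM (limma: -0.25 on the log2 scale, adjusted p = 4.62e-05). GSK3B and PLK3, kinases that phosphorylate HIF-1 alpha, rose with log2 fold changes of 0.27 and 0.50. Of 9 tested bHLH-PAS relatives, 3 rose and 0 fell (median 0.11). AHR, which shares ARNT as its partner, rose from 39.6 ± 3.09 to 52.6 ± 3.98 TPM (limma: 0.40 on the log2 scale, adjusted p = 0.000429). NPAS2 and ARNTL (BMAL1), which pair in the circadian clock, rose with log2 fold changes of 0.37 and 0.23.

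Of 16 genes that set the supply of 2-oxoglutarate, ascorbate or the inhibiting metabolites succinate and fumarate, 3 rose and 5 fell (median log2 fold change -0.001). IDH1, which makes 2-oxoglutarate in the cytosol, rose from 74.6 ± 3.48 to 91.7 ± 4.36 TPM (limma: 0.29 on the log2 scale, adjusted p = 0.00058). IDH3G, a subunit of the mitochondrial enzyme, rose with a log2 fold change of 0.27. IDH3A and IDH3B, other subunits of that enzyme, fell, with log2 fold changes of -0.19 and -0.12 (limma adjusted p = 0.0127 and 0.0298). FH, which removes fumarate, fell from 136 ± 3.54 to 114 ± 4.78 TPM (log2 fold change -0.25, limma adjusted p = 0.000589).

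For comparison, 22 known HIF target genes outside the core were set beside it. Of the 21 tested, 20 rose and 1 fell, with a median log2 fold change of 1.02. This list overlaps one already known to be higher in these libraries and is not independent evidence of its direction. CA9 passed the expression filter only through PDBAG1 (vehicle 0.20 to 0.40 TPM, PDBAG1 1.08 to 1.33 TPM), so its rise was built in. STC2, below 1 TPM in every library, was not tested. HIF activity was not tested here. For glycolysis-related genes under HIF control, the study reported slight rises or falls. All 18 of the list that passed a 1.5-fold change did so upwards, CA9 among them, while in the core only EGLN1 did. EGLN1, with a log2 fold change of 0.82, lay below that median. The gene that fell was ADM, which encodes adrenomedullin and is named here after its values were seen. The largest rises of the list were those of NDRG1, BHLHE40 and ANKRD37 (log2 fold changes of 2.18, 1.92 and 1.64).

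**Figure D4:**
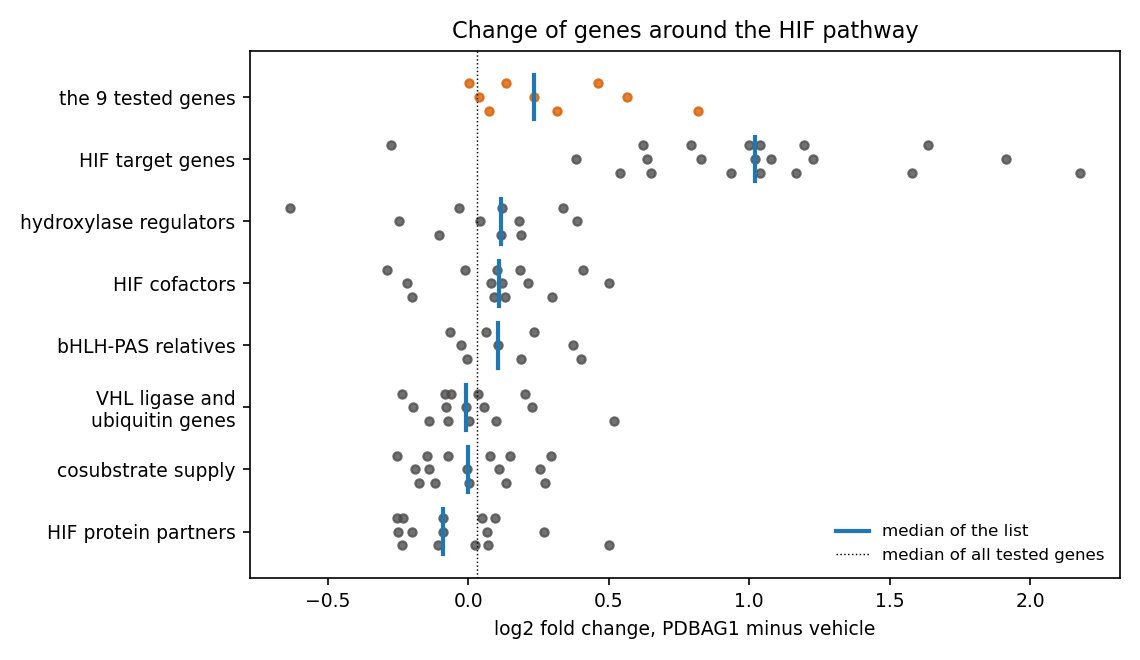
Log2 fold change (PDBAG1 minus vehicle) of each tested gene (points; vertical position within a row is spacing only) in the core and in 7 lists around it, with list medians (bars) and the median of all genes tested (dotted line, 0.03). The HIF target genes lie furthest to the right with a median of 1.02, against 0.23 for the core.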

How the data were processed

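RNA-seq was available for 6 libraries (3 vehicle, 3 PDBAG1), grouped by their titles. Per the labels, the processing notes name HISAT2 2.0.4, Bowtie2 2.2.5, RSEM 1.2.12 and GRCh38.p12, while the methods name HISAT2, GRCh38.p13, FPKM and the BGISEQ-500 platform. The values deposited by the authors are TPM (transcript levels scaled to one total per library), rounded to 2 decimals, and the annotation release is not given in the sources used here. TPM gives no depth, so precision rests on the 3 libraries per group.

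Genes with at least 1 TPM in 3 or more libraries were tested as log2(TPM + 1) in R 4.3.3 with limma 3.58.1 (lmFit, eBayes with trend), without covariates, and called at an adjusted p under 0.05. A gene listed at low TPM changes less on this scale than in TPM. Shares and ratios were tested by exact permutation (SciPy 1.17.1). The fit was tested on simulated data. Gene positions were taken from GENCODE v44 (GRCh38), whose chromosome coordinates the patch releases share, and promoters are from RefSeq.

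All 10 genes are described. Of every other list, up to 3 called genes with the largest change and no overlap are named, and CITED2, ELOC, CUL2, CREBBP and EP300 in any case. ADM, IDH3A and IDH3B are named after their values were seen. The genes and lists were chosen with earlier results of these data known. The alternatives were other filters, pseudocount 0.1, median-of-ratios scaling, quantile normalization, no variance trend, a replicate block, a 1.5-fold limit, geometric means for shares and ratios, and leaving out each library. No source pairs libraries by number, and deviations from the group means correlated at -0.21, 0.01 and -0.08 between libraries of the same number.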

Additional observations from a re-analysis of the deposited data

How the results depend on the processing

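TPM carries no depth, so low genes such as EGLN3 and HIF3A have an unknown counting error. EGLN1, EPAS1, EGLN3 and ARNT kept their direction in every alternative, and their call in every one except the 1.5-fold limit, which EGLN1 alone reached, with log2 fold changes over the fits that left out one library of 0.79 to 0.86, 0.52 to 0.60, 0.40 to 0.56 and 0.29 to 0.35. HIF1A kept its direction and lost its call at 0.13 without the expression filter, without a variance trend and with the replicate block, and at 0.10 under median-of-ratios scaling; with a library left out it ranged from 0.10 to 0.18. The replicate block (HIF1A at limma adjusted p = 0.0645) changed no other call of the 9 genes and took the calls over all genes from 4736 to 3951, and 1 of the 6 libraries correlated best with the library of its own number. VHL ranged from 0.19 to 0.29 with a library left out and lost its call once. The uncalled EGLN2 turned to -0.032 under median-of-ratios scaling and ranged from -0.033 to 0.039 with a library left out, and ARNT2 turned to -0.077 under quantile normalization and ranged from -0.017 to 0.082. Between 4 and 6 of the 9 genes were called higher with a library left out. At a fold change of at least 1.5 there was 1, or 2 with a pseudocount of 0.1, without vehicle replicate 1 or without PDBAG1 replicate 1. Of all genes called, 57.8% were higher, and 46.7% under quantile normalization. The cause of these changes was not tested. For shares and ratios the replicate block cannot change a difference of means, so it checks nothing. In the other alternatives run on them, the differences in the 10 shares and ratios kept their sign. That of the alpha to beta ratio ranged from -1.53 to -0.34 with a library left out.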

Other observations

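Other 2-oxoglutarate oxygenases, a family the EGLN enzymes and FIH belong to, moved in both directions. Of 15 tested, 4 rose and 4 fell, beside 21.7% called higher and 15.9% lower over all genes tested. The median log2 fold change was 0.02 beside 0.03 over all genes tested. KDM5C, a histone H3 lysine demethylase, rose from 36.8 ± 2.50 to 51.2 ± 3.01 TPM (mean ± SD over 3 libraries each; limma: 0.47 on the log2 scale, adjusted p = 6.42e-05). TET2, which oxidises 5-methylcytosine, rose from 5.30 ± 0.550 to 6.89 ± 0.363 TPM (log2 fold change 0.33). JMJD4 fell from 15.3 ± 1.14 to 11.9 ± 0.634 TPM (log2 fold change -0.34, limma adjusted p = 0.00344).

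By Pearson's r of log2(TPM + 1) over the 6 libraries, the genes most like EGLN1 were TCP11L2, RAB31 and KLF9 (r of 1.00, 1.00 and 0.999), those most like EPAS1 were IL4R, NFE2L1 and CREBRF (0.999, 0.998 and 0.998), and those most like HIF1A were SEL1L, ZFP62 and NBEAL1 (0.999, 0.997 and 0.997). The 6 points share 2 treatment groups, and 1262, 1220 and 462 genes reached an r of 0.95 with EGLN1, EPAS1 and HIF1A.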
